A study of Mus musculus with 2 samples.

Results

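The 9 genes examined here are *Hopx*, *Tnc*, *Ptprz1*, *Fam107a*, *Lifr*, *Il6st*, *Pdpn*, *Itgb5* and *Moxd1*, which are widely used as markers of basal radial glia. All 9 of these genes were found among the 32285 genes of both single-cell matrices. They were followed in the embryonic mouse cortex, where UMIs (unique molecular identifiers, each counting 1 captured transcript) were summed per embryo and per marker-defined cell class and given as CPM, the UMIs of a gene per 1000000 UMIs of the class. The data come from 2 wild-type control embryos of the EomesMllt3 breeding, from an Eomes-Cre line on a C57BL/6J background, taken at E16.5. Both embryos belong to the only condition of the series, so no treatment or genotype was compared. The tissue label of both samples reads brain hemispheres, whereas the protocol and design text name the cortex. The tissue was dissociated with papain and profiled by droplet-based 3′ single-cell RNA-seq, and the embryos are named here by their replicate numbers 4 and 5. Nothing else distinguishes the 2 libraries in the labels. The p-values rest on the spread between these 2 embryos, pooled over the groups of a fit and moderated across genes. Without a block, sums of the same embryo were treated as independent. Where the embryo was fitted as a block, the p-values rest on how evenly a difference within an embryo repeated in the other.

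Radial glia are the neural stem cells of the embryonic cortex. Apical radial glia divide at the ventricular surface, while basal (outer) radial glia have left that surface and keep a process towards the pia. Basal radial glia are plentiful in primates and other gyrencephalic species and sparse in the mouse, and they give rise to neurons directly or through Eomes-positive intermediate progenitor cells (IPCs). The proteins encoded by the 9 genes act in several connected systems. TNC (tenascin-C) is an extracellular matrix glycoprotein and binds PTPRZ1, a receptor-type tyrosine phosphatase whose other ligands include pleiotrophin. LIFR and its partner IL6ST (gp130) form the receptor for leukaemia inhibitory factor and signal through JAK and STAT proteins. ITGB5 is the integrin subunit that pairs with alpha V, PDPN (podoplanin) is a mucin-type membrane glycoprotein, HOPX is an atypical homeodomain protein that does not bind DNA itself, and MOXD1 is a monooxygenase-like protein.

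The promoters of 3 genes are shown because the levels of these genes moved together or apart within radial glia, as described below. They are the 250 bases before the first listed RefSeq start in GRCm38.p6, the assembly called mm10 in the submitters' processing notes. *Hopx* and *Tnc* each have 2 listed starts, and *Itgb5* has 1. The windows lie at chr5:77115124-77115373 on the minus strand for *Hopx*, chr4:64047016-64047265 on the minus strand for *Tnc* and chr16:33829415-33829664 on the plus strand for *Itgb5*. Capitals mark matches, on either strand, to 7 short motifs searched in each window, whose letters are given below the sequences.
Hopx: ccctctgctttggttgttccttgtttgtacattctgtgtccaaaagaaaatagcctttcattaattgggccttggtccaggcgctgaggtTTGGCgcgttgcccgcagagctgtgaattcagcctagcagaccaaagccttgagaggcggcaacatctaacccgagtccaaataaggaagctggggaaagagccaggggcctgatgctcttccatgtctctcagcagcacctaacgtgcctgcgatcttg
Tnc: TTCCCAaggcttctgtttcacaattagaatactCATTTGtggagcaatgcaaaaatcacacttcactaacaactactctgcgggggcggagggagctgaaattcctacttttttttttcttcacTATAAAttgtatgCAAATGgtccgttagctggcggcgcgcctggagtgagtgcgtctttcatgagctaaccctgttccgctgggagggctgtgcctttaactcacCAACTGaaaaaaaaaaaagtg
Itgb5: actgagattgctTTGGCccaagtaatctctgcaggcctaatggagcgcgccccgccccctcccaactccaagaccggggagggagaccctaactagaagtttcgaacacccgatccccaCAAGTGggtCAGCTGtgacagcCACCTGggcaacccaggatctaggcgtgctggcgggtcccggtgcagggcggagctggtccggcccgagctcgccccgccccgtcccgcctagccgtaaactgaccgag
The *Hopx* window held 1 match, an NFI motif at bases -160 to -156 from the start. The *Tnc* window held an RBPJ match at -250 to -245, a TATA match at -126 to -121 and E-boxes beginning at -217, -113 and -21. The *Itgb5* window held E-boxes beginning at -131, -122 and -109 and an NFI match at -238 to -234. No overlap occurred between matches to different motifs. Such matches are common among the 32851 annotated promoter windows of this length. The E-box, spelled CANNTG, was held by 66.2% of them, and the NFI motif, spelled TTGGC, by 41.5%. The RBPJ motif, spelled TGGGAA, was held by 21.6%, and the TATA box motif, here with the letters TATAAA, was held by 12.4% of the windows. The remaining motifs were absent from all 3 windows, and they are a SOX motif spelled ACAAAG, which 16.5% of all windows held, a STAT motif spelled TTCNNNGAA, which 7.02% of the windows held, and an LHX motif spelled TAATTA, which 4.84% held. The GC content was 52.4% for *Hopx*, 44.8% for *Tnc* and 65.2% for *Itgb5*, against a median of 52.4% over all windows. The windows before the second starts, not printed here, differed in content. That of *Hopx* (chr5:77095268-77095517, GC content 57.6%) held 1 E-box and 0 NFI matches. That of *Tnc* (chr4:64046937-64047186, GC content 51.2%) held 2 E-boxes and 1 match each to the RBPJ, NFI and TATA motifs. The matches are a description of letters and carry no measurement of binding.

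The 3 genes themselves span chr5:77086986-77115123 (*Hopx*, ENSMUSG00000059325), chr4:63959785-64047015 (*Tnc*, ENSMUSG00000028364) and chr16:33829665-33949338 (*Itgb5*, ENSMUSG00000022817). *Ptprz1* lies at chr6:22875315-23052916, *Lifr* at chr15:7090610-7197489 and *Pdpn* at chr4:143267409-143299564. Overlapping annotation touches 2 of the 9 genes. The long non-coding RNA *Hopxos* lies within *Hopx* on the opposite strand, and the long non-coding RNA *8030451A03Rik* overlaps *Tnc* on the opposite strand. Whether antisense reads and introns were counted is not given in the sources used here, so the values of these overlapping genes are set beside *Hopx* and *Tnc* below.

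The libraries held 12825 and 12289 barcodes with 124318613 and 117679925 UMIs, and 46 of all 25114 barcodes occurred in both. After filtering, 9932 and 10416 cells remained with medians of 10029.5 and 8830 UMIs per cell. Radial glia were taken as cells with at least 3 UMIs of *Slc1a3* (the glutamate transporter GLAST), at most 1 of *Eomes* and at most 3 of *Neurod2* and *Neurod6* together, a gate that uses none of the 9 genes. It held 873 cells in embryo 4 and 925 in embryo 5 (8.79% and 8.88% of the kept cells), with medians of 12001 and 10928 UMIs. All 8 radial glia markers checked were detected in the gate and summed to 6955 and 6863 CPM, against 183 and 109 CPM for the IPC markers. Interneuron markers summed to 175 and 106 CPM and excitatory neuron markers to 123 and 95.3 CPM. Choroid plexus and ependymal markers summed to 75.1 and 22.2 CPM, subpallial progenitor markers to 44.6 and 33.1 CPM, mural markers to 48.1 and 74.5 CPM and microglial markers to 13.8 and 11.4 CPM. *Kl* was at 0 in embryo 4, and *Gsx1* and *Nkx2-1* were at 0 in embryo 5. In all, 51 (5.84%) and 88 (9.51%) of the gate's cells also carried UMIs of another lineage by fixed limits. These limits were the gates of the other classes, *Olig1*, *Olig2* and *Pdgfra* together, or *Dlx1*, *Dlx2*, *Gsx2* and *Gad2* together. No choroid plexus or ependymal marker was among them, so cells with only such markers were not counted. At the edge of the gate, cells with 2 *Slc1a3* UMIs, just outside, had 42.9 and 55.8 CPM of *Hopx* and 185 and 165 CPM of *Tnc*, while cells with 3, just inside, had 49.2 and 38.0 CPM of *Hopx* and 205 and 200 CPM of *Tnc*.

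*Tnc*, *Hopx* and *Pdpn* marked radial glia most sharply, *Ptprz1* was shared with cortical neurons, *Il6st* and *Itgb5* were higher in mural/fibroblast-like and microglia-like cells than in radial glia, and *Lifr* had its highest mean over both embryos in Cajal-Retzius-like cells. *Fam107a* and *Moxd1* were close to undetected. In radial glia *Tnc*, the matrix ligand, stood at 278 CPM in embryo 4 and 322 CPM in embryo 5. The IPC-like class (*Eomes* at least 3 UMIs, few *Neurod2* and *Neurod6* UMIs) held 35.5 and 37.8 CPM of *Tnc*, and the Tbr1/Bcl11b neuron-like class, the deep-layer type, held 3.25 and 1.17 CPM. The ranges of radial glia, IPC-like cells and every other class did not overlap for this gene, cells outside all gates left aside. Radial glia contributed 70.8% and 74.5% of all *Tnc* UMIs in kept cells.

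*Ptprz1*, the receptor for tenascin-C, reached 1362 and 1442 CPM in radial glia. It was still 675 and 706 CPM in the Tbr1/Bcl11b neuron-like class. IPC-like cells held 228 and 254 CPM and newborn neuron-like cells, which carry both *Eomes* and Neurod UMIs, 73.6 and 52.2 CPM. The *Ptprz1* level was thus lower in the 2 Eomes-positive classes than in both radial glia and the Tbr1/Bcl11b neuron-like class, with no overlap between embryos. Only 25.9% and 25.6% of *Ptprz1* UMIs lay in radial glia.

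The LIF receptor pair showed another distribution. *Lifr* stood at 15.4 and 11.8 CPM in radial glia, 10.9 and 12.2 CPM in IPC-like cells and 60.7 and 62.5 CPM in Cajal-Retzius-like cells, the Reln-positive neurons of the marginal zone. Radial glia overlapped the Tbr1/Bcl11b neuron-like class (13.5 and 13.6 CPM) and IPC-like cells in this gene. *Il6st*, the shared signalling subunit, stood at 16.0 and 18.4 CPM in radial glia and 7.63 and 8.83 CPM in IPC-like cells. Mural/fibroblast-like cells (52 and 46 cells) held more of both, with 58.8 and 48.3 CPM of *Lifr* and 33.6 and 41.4 CPM of *Il6st*.

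The membrane proteins also differed. *Pdpn* stood at 90.2 and 83.5 CPM in radial glia, 20.8 and 21.6 CPM in IPC-like cells and 1.12 and 0.68 CPM in Tbr1/Bcl11b neuron-like cells. *Itgb5* stood at 17.9 and 18.5 CPM in radial glia and 2.64 and 4.57 CPM in IPC-like cells, but at 205 and 154 CPM in mural/fibroblast-like cells and 392 and 176 CPM in microglia-like cells (22 and 13 cells). Radial glia ranked behind these 2 small classes and ahead of every neuronal class for *Itgb5*, without overlap. When the other-lineage cells were left out of the gate, *Itgb5* averaged 17.5 CPM and *Il6st* 15.4 CPM in radial glia, against 18.2 and 17.2 CPM with them.

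*Hopx* stood at 51.2 and 59.7 CPM in radial glia, 15.6 and 15.5 CPM in IPC-like cells and 4.26 and 8.25 CPM in Cajal-Retzius-like cells, and 60.3% and 58.5% of its UMIs lay in radial glia. The *Hopx* ranges of radial glia, IPC-like cells and all remaining named classes were separate. Cells that met no gate (1960 and 1924) also carried these genes, with 16.8 and 23.7 CPM of *Hopx*, 60.8 and 66.4 CPM of *Tnc*, 26.6 and 39.3 CPM of *Pdpn* and 444 and 505 CPM of *Ptprz1*. *Fam107a*, a radial glia marker best known from primate cortex, gave 0 UMIs in the radial glia of embryo 4 and 1 in embryo 5, and 10 and 6 UMIs over all kept cells. A count of 0 allows up to 0.27 CPM in embryo 4 (3 UMIs of that class, counting error only). *Moxd1* gave 11 and 15 UMIs in radial glia, which is 0.99 and 1.43 CPM, and 26 and 31 over all kept cells. Both genes were therefore too sparse for any comparison within radial glia.

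**Figure D1:**
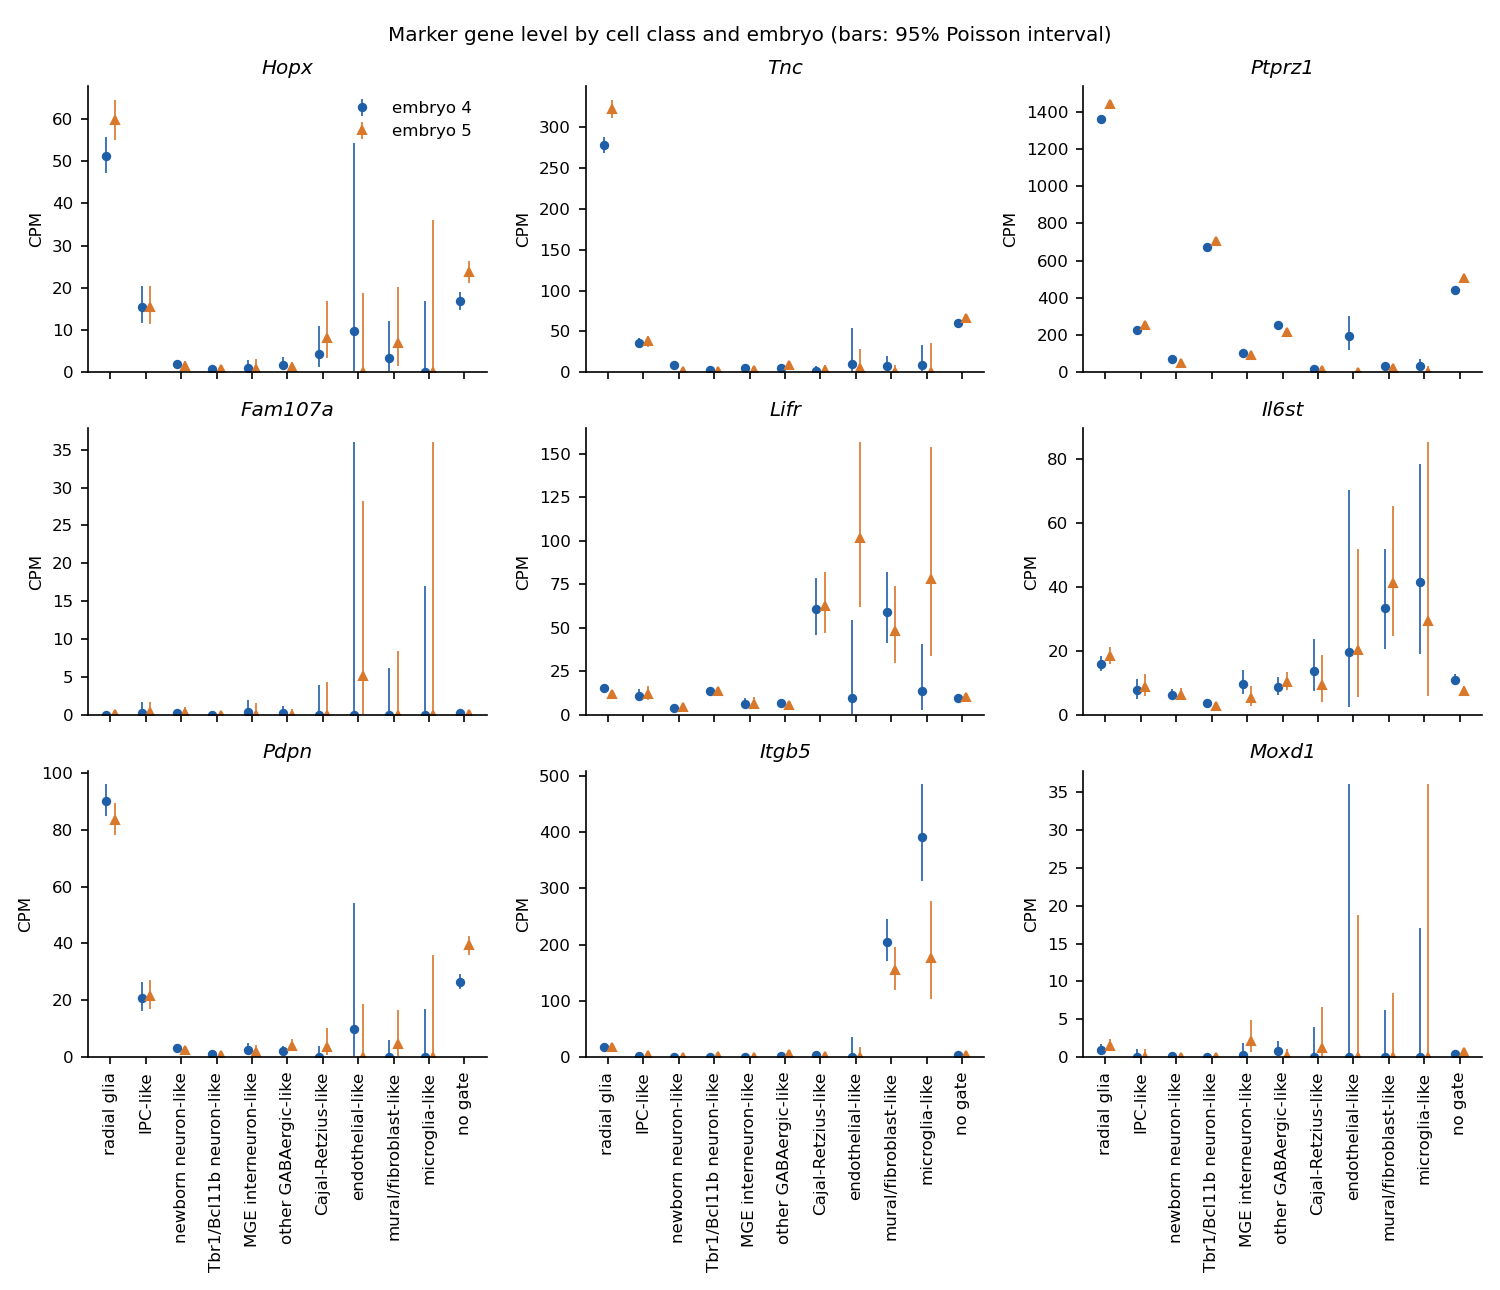
Level of each of the 9 genes in CPM (vertical axis, linear from 0) in each cell class shown (horizontal axis) for embryo 4 (circles) and embryo 5 (triangles), with 95% exact Poisson intervals that cover counting error only. Hopx, Tnc, Ptprz1 and Pdpn are highest in radial glia, Itgb5 is highest in microglia-like and mural/fibroblast-like cells, and Fam107a in radial glia lies at 0 and 0.10 CPM.

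The share of cells with a UMI gave the same order at equal depth for *Tnc*, *Hopx* and *Pdpn* in radial glia and Tbr1/Bcl11b neuron-like cells. When 807 and 869 radial glia with at least 5000 UMIs were thinned to 5000 UMIs each (leaving out 66 and 56 shallower cells), 94.8% and 92.2% held *Ptprz1*, 48.7% and 50.2% *Tnc*, 34.1% and 32.8% *Pdpn* and 18.3% and 19.1% *Hopx*. *Itgb5* was found in 6.69% and 7.02% of these cells, *Il6st* in 6.20% and 7.13% and *Lifr* in 5.70% and 4.14%. In embryo 4 *Lifr* was found in 6.29% of IPC-like cells thinned in the same way, a larger share than in radial glia despite a lower CPM. In Tbr1/Bcl11b neuron-like cells (median 11887 and 10328 UMIs) thinned in the same way the shares were 1.42% and 0.63% for *Tnc*, 0.24% and 0.52% for *Hopx* and 0.39% and 0.26% for *Pdpn*. Without thinning, *Hopx* was seen in 35.5% and 34.3% of radial glia, against 0.78% and 0.80% of Tbr1/Bcl11b neuron-like cells. The share of cells with *Hopx* thus rose with depth, and absence of a UMI in a cell does not show that the gene was off.

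To ask which of the genes separate radial glia from each other class, UMI sums per embryo and class were compared across 15515 genes with edgeR's quasi-likelihood test and Benjamini-Hochberg adjustment, calling genes at an adjusted p under 0.05. The test covered 7 of the 9 genes, because *Fam107a* and *Moxd1* did not pass the filter on low counts. Against IPC-like cells, the nearest class in the lineage, 6 of 7 were higher in radial glia and 0 lower, where 18.5% of all genes were called higher and 17.9% lower. The 7 genes had a median log2 fold change of 2.0, against 0.00 over all genes.

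*Tnc* differed most from IPC-like cells, with a log2 fold change of 3.0 ± 0.33 (SE, n = 2 embryos per class; adjusted p = 4.92e-06). Its receptor *Ptprz1* followed at 2.50 ± 0.12, then *Itgb5* at 2.30 ± 0.38, *Pdpn* at 2.0 ± 0.19 and *Hopx* at 1.80 ± 0.17. *Il6st* was higher by 1.03 ± 0.24 (adjusted p = 0.00344), whereas *Lifr* differed by 0.21 ± 0.18 and missed the threshold (adjusted p = 0.399). Of the LIF receptor subunits 1 thus passed and 1 did not, and the difference between them was not itself tested.

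Against newborn neuron-like cells 7 of 7 were higher, beside 28.2% of all genes higher and 27.9% lower. Here *Tnc* differed by 5.63, *Hopx* by 4.90, *Pdpn* by 4.78, *Ptprz1* by 4.37, *Itgb5* by 4.28, *Lifr* by 1.61 and *Il6st* by 1.36 on the log2 scale. Newborn neuron-like cells were the class in which the least *Lifr* was seen.

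Against Tbr1/Bcl11b neuron-like cells 6 of 7 were higher and 0 lower, beside 33.0% of all genes higher and 36.5% lower. *Lifr* differed by -0.23 ± 0.13 and missed the threshold (adjusted p = 0.128). Of the 6 that passed, *Ptprz1* separated radial glia from these neurons least, by 0.78 ± 0.11. *Tnc*, *Pdpn* and *Hopx* differed by 6.82, 6.32 and 5.80.

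Against GABAergic cells all 7 were higher. The backgrounds were 31.5% higher and 31.9% lower for MGE interneuron-like cells, which carry *Lhx6*, and 30.5% and 31.5% for other GABAergic-like cells. *Ptprz1* was higher by 3.69 ± 0.14 than in the MGE class and by 2.54 ± 0.12 than in the other GABAergic class. *Hopx* and *Itgb5* had at most 3 UMIs per embryo in the MGE class, so the sizes of those fold changes depend on the prior count and are not given.

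Against Cajal-Retzius-like cells (64 and 69 cells) 5 of 7 were higher and 1 lower, beside 27.1% of all genes higher and 24.1% lower. *Lifr* was lower in radial glia by 2.12 ± 0.17 on the log2 scale (adjusted p = 7.95e-08), and *Ptprz1* was higher by 6.44 ± 0.20. *Il6st* differed by 0.61 ± 0.31 and missed the threshold (adjusted p = 0.119). *Tnc*, *Pdpn* and *Itgb5* had at most 3 UMIs per embryo in the Cajal-Retzius-like class and are given by their levels only. This comparison was added after the levels had been seen. Endothelial-like and mural/fibroblast-like cells were under the limit of 50 cells in at least 1 embryo and were not tested.

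**Figure D2:**
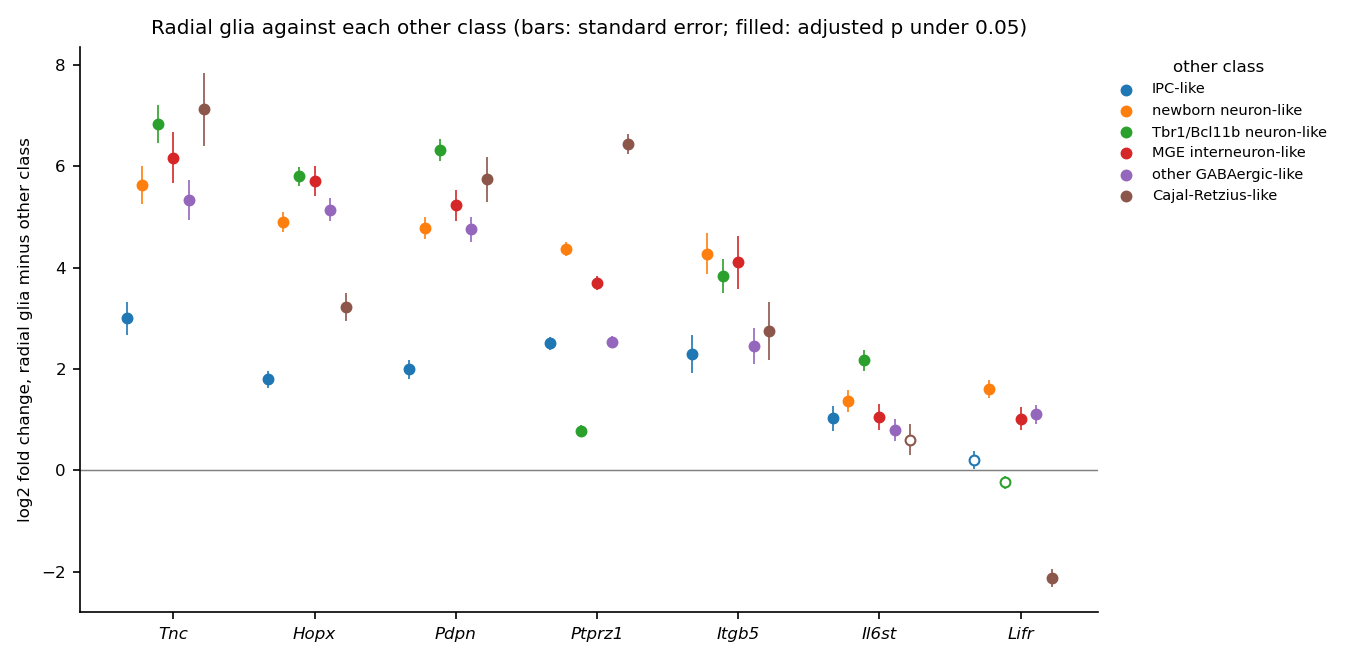
Log2 fold change of 7 genes (horizontal axis), radial glia minus each other class shown, from edgeR, with standard errors (2 embryos per class); filled points have an adjusted p under 0.05 and open points do not. Tnc, Hopx, Pdpn and Itgb5 lie above 1 against every class shown, and Lifr falls to -2.12 against Cajal-Retzius-like cells. The sizes of some points rest on very few UMIs in the other class. They are Hopx and Itgb5 against MGE interneuron-like cells and Tnc, Pdpn and Itgb5 against Cajal-Retzius-like cells.

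The other genes of these pathways were read in the same fits. Of 14 tested genes of the LIF and IL6 family, its receptors and JAK-STAT proteins (21 listed), 5 were higher in radial glia than in IPC-like cells and 1 was lower, with a list median of 0.39 against 0.00 over all genes. *Cntfr*, the ligand-binding receptor for ciliary neurotrophic factor, was higher by 1.36 ± 0.12 and the kinase gene *Jak2* by 0.74 ± 0.10. *Stat3*, the transcription factor downstream of gp130, was lower by 1.46 ± 0.15 in radial glia than in IPC-like cells, given as a log2 fold change of -1.46. Against Tbr1/Bcl11b neuron-like cells *Stat3* was instead higher by 1.02 ± 0.14 and *Cntfr* by 2.62 ± 0.10.

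Of 14 tested partners of PTPRZ1 and tenascin-C, 5 were higher in radial glia than in IPC-like cells and 4 were lower, with a list median of 0.16. The ligand gene *Ptn* (pleiotrophin) was higher by 1.66 ± 0.12, the proteoglycan genes *Cspg5* by 1.89 ± 0.14 and *Bcan* (brevican) by 2.31 ± 0.34, while *Sdc3* (syndecan-3, another pleiotrophin receptor) had a log2 fold change of -3.41 ± 0.17. Against the Tbr1/Bcl11b neuron-like class 8 of the 14 were higher and 5 lower, with *Ptn* at 2.48 ± 0.13, *Tnr* (tenascin-R) at -6.52 ± 0.24 and the neuronal adhesion gene *Cntn1* at -4.79 ± 0.21. The share called lower against the Tbr1/Bcl11b neuron-like class was close to that of all genes (36.5%), so nothing particular to this list is read from it.

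Integrin subunits and ligands moved in 1 direction against IPC-like cells, with 6 of 8 tested genes higher (11 listed), 0 lower and a list median of 1.75. *Itga6*, a laminin receptor subunit, was higher by 1.98 ± 0.16, *Itgb8* by 1.02 ± 0.10, *Itga2* by 3.14 ± 0.53 and the ligand gene *Spp1* (osteopontin) by 4.08 ± 0.72. *Itgav*, which encodes the alpha V partner of ITGB5, was higher by 2.25 ± 0.19 than in newborn neuron-like cells and by 3.43 ± 0.18 than in Tbr1/Bcl11b neuron-like cells.

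Other lists placed the same gate. Against IPC-like cells 12 of 13 radial glia genes outside the gate were higher (*Hes1* by 2.65 ± 0.15, *Sox9* by 1.96 ± 0.13), 14 of 17 tested early astroglial genes were higher (*Id3* by 3.31 ± 0.30, *Apoe* by 2.32 ± 0.18) and 16 of 16 cell cycle genes were higher. Of 14 neurogenic commitment genes 13 were lower, among them *Neurog2* at -4.17 ± 0.22. Apical and ventricular radial glia genes were split, with 4 of 12 higher (*Tagln2* by 3.40 ± 0.26, *Crb2* by 2.79 ± 0.37) and 3 lower (*Fbxo32* at -3.72 ± 0.34, *Crb1* at -1.34 ± 0.21). Among genes of other territories, 3 of 6 subpallial progenitor genes, 1 of 4 oligodendrocyte precursor genes and 2 of 3 choroid plexus and ependymal genes were higher in the radial glia gate, and 0 were lower. The share of other-lineage cells in the gate is given above. Its limits use some of the subpallial and oligodendrocyte precursor genes but no choroid plexus or ependymal gene. The part of cells of other territories in these counts was not tested.

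The cell cycle was examined next, since cycling and resting radial glia could differ in these genes. Cells with at least 2 UMIs of *Top2a* and *Mki67* together (490 and 545) were compared with cells that had none (267 and 285). The cycling cells were deeper, with medians of 14996.5 and 12524 UMIs against 9988 and 8628, and these cells were not thinned. The part of depth in this comparison was not tested. Of 12969 genes tested, 6.52% were called higher in cycling cells and 1.95% lower. None of the 7 tested marker genes passed (0 of 7 in edgeR). At an unadjusted p under 0.05 there were 3 of the 7, beside 1948 higher and 1632 lower genes of all 12969. DESeq2 called 1 of the 7, beside 723 higher and 227 lower of 12717 genes.

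*Tnc* was the closest. It stood at 242 and 270 CPM in cycling and 344 and 396 CPM in non-cycling radial glia, a log2 fold change of -0.46 ± 0.11 (adjusted p = 0.0508). With the embryo as a block, in which both groups of cells come from the same animal, the adjusted p was 0.00528 at the same -0.46. The block called 1211 of all 12969 genes higher and 681 lower. The antisense gene *8030451A03Rik* gave 53.1 and 50.2 CPM against 100.04 and 94.5 CPM, a log2 fold change of -0.84 ± 0.10 that passed (adjusted p = 0.00577).

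*Itgb5* stood at 16.6 and 14.2 CPM in cycling against 22.4 and 29.7 CPM in non-cycling cells (-0.68 ± 0.20, adjusted p = 0.0955). *Hopx* stood at 54.2 and 64.1 CPM in cycling against 46.4 and 55.0 CPM in non-cycling cells (0.29 ± 0.15, adjusted p = 0.269), and the embryos overlapped. *Lifr* differed by -0.83 ± 0.31 (adjusted p = 0.151) and *Il6st* by -0.41 ± 0.25, while *Ptprz1* and *Pdpn* both lay at -0.01. When *Hes5* in place of *Slc1a3* defined radial glia, *Tnc* (-0.98), *Ptprz1* (-0.60) and *Itgb5* (-1.18) passed. In that setting 499 of 10225 genes were called higher and 277 lower. With the *Slc1a3* gate *Tnc* also passed in DESeq2 (adjusted p = 0.0107). In edgeR it passed when cycling cells needed at least 5 UMIs (adjusted p = 0.0235) and without other-lineage cells (adjusted p = 0.0271). The outcome for *Ptprz1* and *Itgb5* thus depended on the gate, and that for *Tnc* also on the test and the limits.

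In the same comparison 13 of 16 cell cycle genes outside the gate were higher in cycling cells, as were 3 of 13 radial glia genes (*Pax6* by 0.56 ± 0.09, *Gli3* by 0.36 ± 0.07, *Sox2* by 0.48 ± 0.11). Of 17 tested early astroglial genes 0 were higher and 3 were lower, namely *Apoe* (-1.62 ± 0.17), *Id3* (-0.55 ± 0.11) and *Acsbg1* (-0.70 ± 0.15). Of the PTPRZ1 and tenascin-C partners 3 of 14 were lower, including the ligand gene *Mdk* (midkine, -0.47 ± 0.08) and *Cspg5* (-0.59 ± 0.12). *Stat3* was the 1 called gene of 11 tested in the LIF and IL6 family list, at -1.34 ± 0.24.

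Co-detection within single radial glia was then described in the thinned cells. Embryos, not cells, are the replicates here, and the ratios below have no test. The ratio compares the number of cells holding both genes with the number given by the product of the single-gene shares. All points of an embryo share 1 library, and thinning holds their depth equal.

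*Hopx* and *Tnc* occurred together in 91 cells of embryo 4, where 72.1 were given by the product, and in 99 cells of embryo 5, where 83.3 were given. The mean ratio was 1.23 ± 0.05 (SD, n = 2). *Hopx* and *Pdpn* occurred together in 41 and 55 cells, where 50.4 and 54.4 were given, a mean ratio of 0.91 ± 0.14. The *Hopx* and *Tnc* ratios were 1.26 and 1.19 in the 2 embryos, and both lay within the middle 90% of *Hopx* ratios over all genes present in at least 5% of cells (0.69 to 1.30 in embryo 4 and 0.69 to 1.29 in embryo 5). The *Hopx* and *Pdpn* ratios lay within the same range.

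*Tnc* and *Itgb5* occurred together in 42 and 40 cells, where 26.3 and 30.6 were given (mean ratio 1.45 ± 0.21). *Hopx* and *Itgb5* occurred together in only 3 and 5 cells, where 9.90 and 11.7 were given (0.37 ± 0.09), and these few cells limit the precision of the ratio. Over the same genes the middle 90% of *Tnc* ratios ran from 0.85 to 1.20 in embryo 4 and 0.83 to 1.18 in embryo 5. *Tnc* with *Itgb5* lay above this range, and *Hopx* with *Itgb5* lay below the range for *Hopx*, in both embryos. The ranges pool genes of every share from 5% of cells upwards and were not matched to *Itgb5*, which lies near that limit. Ratios of such rare genes rest on few cells, so whether these ratios are unusual for a gene this rare was not tested. Over 11 settings, the main one included, the mean ratio of *Hopx* and *Tnc* ranged from 1.08 to 1.36, that of *Tnc* and *Itgb5* from 1.22 to 2.04 and that of *Hopx* and *Itgb5* from 0 to 0.748. The mean ratio of *Hopx* and *Pdpn* ranged from 0.685 to 1.28 and lay above 1 in 6 of the 11 settings.

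*Ptprz1*, present in nearly all radial glia, gave ratios close to 1 with *Tnc* (1.04 ± 0.04), *Pdpn* (1.03 ± 0.02) and *Hopx* (1.02 ± 0.06). The median over the 6 pairs of *Hopx*, *Tnc*, *Ptprz1* and *Pdpn* was 1.01 in embryo 4 and 1.07 in embryo 5. Cells with at least 4 of the marker genes made up 9.91% of radial glia in embryo 4 and 9.44% in embryo 5, where the single-gene shares give 7.39% and 7.31%. At least 3 were held by 34.2% and 34.5% of cells, where 33.1% and 32.7% were given. These shares rose with depth. At least 4 were held by 0.92% and 1.74% of cells thinned to 2000 UMIs, 18.5% and 19.4% at 8000 UMIs and 33.4% and 29.9% without thinning, where the single-gene shares give 30.6% and 26.0%. At 5000 UMIs 0 of 807 and 0 of 869 cells held 6 or more. That count depended on depth, on the gate and on the random draw of UMIs, which was made anew for each set of cells. Without thinning 14 of 873 (1.60%) and 15 of 925 cells (1.62%) held 6 or more, where the single-gene shares give 0.89% and 0.67%. At 8000 UMIs there were 3 and 4 such cells, with *Slc1a3* of at least 5 there were 4 of 533 and 2 of 548, and with the *Hes5* gate 0 of 275 and 3 of 207. No limit on cells that carry most of these genes is therefore drawn from the thinned counts.

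**Figure D3:**
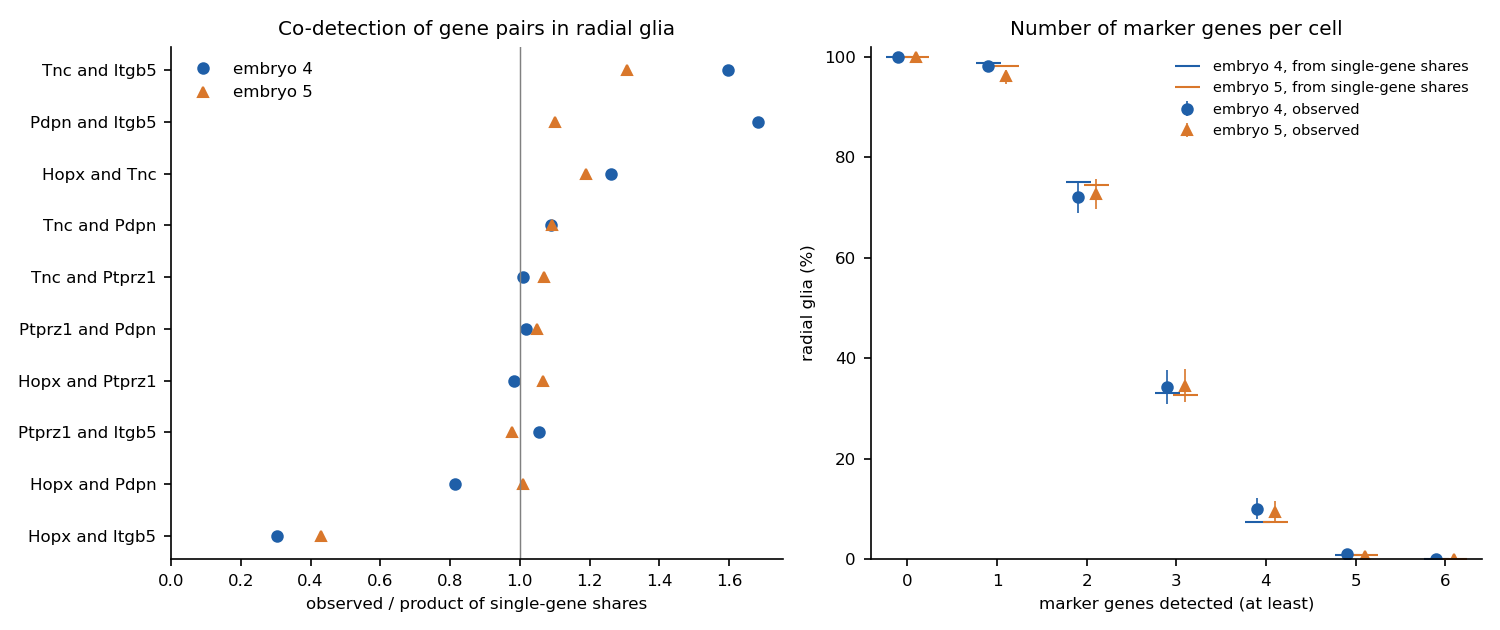
Left, ratio of observed to product-given co-detection (horizontal axis) for each pair of 5 genes in thinned radial glia of embryo 4 (circles) and embryo 5 (triangles); right, percent of radial glia (vertical axis) with at least a given number of the marker genes, observed with 95% exact binomial intervals and as given by single-gene shares (dashes). Tnc with Itgb5 lies above 1 and Hopx with Itgb5 below 1 in both embryos.

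To see what accompanies each gene, radial glia with and without a UMI of it were summed per embryo after thinning and compared with edgeR. Both groups come from the same embryo, so values with the embryo as a block are given where they changed a call. *Ptprz1*, *Lifr*, *Fam107a* and *Moxd1* left too few cells on 1 side and were not split.

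Radial glia with *Hopx* (148 and 166 cells) and without it (659 and 703) differed in 1 higher and 1 lower gene of 11091, each 0.00902% of those tested. With an unadjusted p under 0.05 there were 329 and 332 genes, DESeq2 called 4 and 7, and the block called 82 and 75. The higher gene was *Adamts19*, a secreted metalloproteinase, at 79.7 and 89.2 CPM in cells with *Hopx* against 22.2 and 20.5 CPM without it (log2 fold change 2.0 ± 0.18, adjusted p = 0.00782). The lower was *Epha3*, an ephrin receptor, at 36.5 and 54.2 CPM against 171 and 162 CPM (-1.85 ± 0.17, adjusted p = 0.00782). The groups were separate in both genes.

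None of the other marker genes passed in the *Hopx* comparison (0 of 6 tested in edgeR, 2 at an unadjusted p under 0.05, DESeq2 0). *Itgb5* stood at 4.05 and 6.02 CPM with *Hopx* against 19.1 and 20.8 CPM without it (-1.94 ± 0.37, adjusted p = 0.202), and with the embryo as a block it passed (adjusted p = 0.00519). These levels with *Hopx* rest on 3 and 5 UMIs. *Tnc* differed by 0.30 ± 0.13, *Ptprz1* by 0.06 ± 0.10 and *Pdpn* by -0.15 ± 0.15 on the log2 scale.

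No list held a called gene in the *Hopx* comparison without the block. With the block, 82 of all 11091 genes were called higher and 75 lower. Of 13 medial pallium and cortical hem genes 3 were then higher (*Rspo1*, *Rspo2* and *Rspo3*, secreted Wnt enhancers) and 1 lower (*Nr2f1*, a transcription factor gene, -0.72 ± 0.11). Of 11 neurogenic commitment genes 2 were lower (*Gadd45g* by a log2 fold change of -2.31 ± 0.29 and *Neurog2* by -0.84 ± 0.22). *Rspo2* in cells without *Hopx* stood at 33.1 CPM in embryo 4 and 0.28 CPM in embryo 5, and *Rspo3* at 39.2 and 3.13 CPM, so the embryos were uneven. When other-lineage cells were also left out, *Rspo2* (0.28 ± 0.28) and *Rspo3* (0.63 ± 0.24) no longer passed, while *Rspo1* (1.65 ± 0.48), *Wnt8b* (1.90 ± 0.53) and *Lef1* (0.72 ± 0.17) did, and *Nr2f1* stayed lower (-0.76 ± 0.10). In that setting 142 of all 10843 genes were called higher and 97 lower.

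Radial glia with *Tnc* (393 and 436 cells) and without it (414 and 433) differed more widely, with 1.03% of 11173 genes higher and 0.251% lower. Of the 6 marker genes tested 1 was higher and 0 lower. *Ptprz1*, the tenascin-C receptor, stood at 1761 and 1842 CPM with *Tnc* against 1003 and 1102 CPM without it (0.77 ± 0.08, adjusted p = 0.00539).

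*Hopx* stood at 59.5 and 63.3 CPM with *Tnc* against 35.7 and 38.3 CPM without it (0.73 ± 0.15, adjusted p = 0.0737), and *Itgb5* at 26.5 and 23.4 CPM against 6.76 and 12.5 CPM (1.36 ± 0.30, adjusted p = 0.0881). Both passed with the embryo as a block (adjusted p = 0.00865 and 0.0103), where 397 of all 11173 genes were called higher and 291 lower. *Pdpn* differed by 0.31 ± 0.12. The overlapping non-coding gene *8030451A03Rik* stood at 119.6 and 122 CPM with *Tnc* against 17.4 and 11.1 CPM without it (3.09 ± 0.19, adjusted p = 0.000549). It also followed *Tnc* between classes, at 67.3 and 68.7 CPM in radial glia, 7.63 and 7.002 CPM in IPC-like cells and 0.64 and 0.23 CPM in Tbr1/Bcl11b neuron-like cells. *Hopxos*, by contrast, gave only 2 and 5 UMIs in radial glia.

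The genes that rose with *Tnc* included 3 of 5 tested genes of a lateral pallium and antihem list. That list was chosen with earlier results of these data known. *Nrg1* (neuregulin-1) stood at 4737 and 4968 CPM with *Tnc* against 2478 and 2609 CPM without it (0.93 ± 0.07, adjusted p = 0.00188), *Nrg3* was higher by 1.24 ± 0.12 and *Sfrp2*, a secreted Wnt antagonist, by 0.89 ± 0.16. Of 15 tested early astroglial genes 4 were higher, among them *Aldoc* by 0.92 ± 0.09 and *Aldh1l1* by 1.88 ± 0.23. The brain lipid-binding protein gene *Fabp7* stood at 5810 and 6116 CPM against 2724 and 2563 CPM (1.17 ± 0.07). Of 16 cell cycle genes 4 were higher, including the replication genes *Mcm3* and *Mcm6*, and 1 was lower, the mitotic gene *Ube2c* (-0.52 ± 0.09).

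Subpallial progenitor genes went the other way, with 3 of 4 tested lower in cells with *Tnc*. *Dlx1* stood at 6.11 and 6.88 CPM with *Tnc* against 31.9 and 28.2 CPM without it (-2.20 ± 0.25, adjusted p = 0.00834) and *Dlx2* differed by -1.98 ± 0.36. The limits for other-lineage cells use *Dlx1* and *Dlx2* themselves, so leaving these cells out was bound to lower both genes. Neither remained among the tested genes, and this setting therefore says nothing about their difference. *Nrg1* (0.86 ± 0.09) and *Ptprz1* (0.71 ± 0.09) stayed past the threshold. *Hopx* then differed by 0.54 ± 0.16 (adjusted p = 0.149 without and 0.0491 with the block) and *Itgb5* by 1.16 ± 0.28 (adjusted p = 0.0555 and 0.0235).

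Radial glia with *Itgb5* (54 and 61 cells) and without it (753 and 808) had 0.763% of 11266 genes higher and 0.178% lower. Of the 6 marker genes tested 2 were higher and 0 lower. *Tnc* stood at 630 and 800.0 CPM with *Itgb5* against 238 and 283 CPM without it (1.45 ± 0.15, adjusted p = 0.00651). *Ptprz1* stood at 2481 and 2587 CPM against 1293 and 1389 CPM (0.90 ± 0.10, adjusted p = 0.00672).

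*Hopx* went the other way, at 11.1 and 29.5 CPM with *Itgb5* against 49.9 and 52.5 CPM without it (-1.31 ± 0.37, adjusted p = 0.209). *Hopx* passed with the embryo as a block (adjusted p = 0.0212) but rested on few UMIs in the cells with *Itgb5*. The block called 268 of all 11266 genes higher and 160 lower. Without other-lineage cells it differed by -1.07 ± 0.35 and missed the threshold (adjusted p = 0.199). *Pdpn* differed by 0.67 and passed with the block (adjusted p = 0.0355). With the block and without other-lineage cells neither passed (adjusted p = 0.0693 for *Hopx* and 0.170 for *Pdpn*).

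Of the same lateral pallium and antihem list 3 of 4 tested genes were higher. *Sfrp2* stood at 119 and 167 CPM with *Itgb5* against 45.2 and 37.9 CPM (1.78 ± 0.22), *Nrg3* differed by 0.87 ± 0.12 and *Nrg1* by 0.81 ± 0.12. Of 16 tested early astroglial genes 3 were higher, namely *Aldh1l1* (2.14 ± 0.26), *Apoe* (1.13 ± 0.21) and *Qk* (0.65 ± 0.10). *Fabp7* stood at 9189 and 9170 CPM against 3871 and 3981 CPM (1.21 ± 0.09), and *Egfr*, the receptor for epidermal growth factor, at 51.9 and 68.9 CPM against 15.7 and 16.1 CPM (1.92 ± 0.28). *Nr2f1*, a transcription factor gene of the medial pallium list that is known for a high caudolateral level in cortex, was higher by 0.69 ± 0.12 with *Itgb5*. The fits with *Tnc* and with *Itgb5* use the same cells, so their values stand side by side and are not independent.

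Splits by *Il6st* (50 and 62 cells with it) and by *Pdpn* (275 and 285) called no gene in edgeR, 0.00% in each direction of 11219 and 11211 tested, and 0 of 6 marker genes. At an unadjusted p under 0.05 there were 407 higher and 289 lower genes for *Il6st* and 213 and 204 for *Pdpn*, and DESeq2 called 2 and 3. With the embryo as a block 170 higher and 6 lower genes were called for *Il6st*, which fell to 3 in all when other-lineage cells were also left out, and 36 and 40 for *Pdpn*. In the *Pdpn* split *Tnc* stood at 315 and 379 CPM against 238 and 290 CPM (0.40 ± 0.13) and *Ptprz1* at 1541 and 1647 CPM against 1285 and 1388 CPM (0.26 ± 0.08), which passed with the block (adjusted p = 0.00632 and 0.00124). *Hopx* differed by -0.34 ± 0.17 there.

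**Figure D4:**
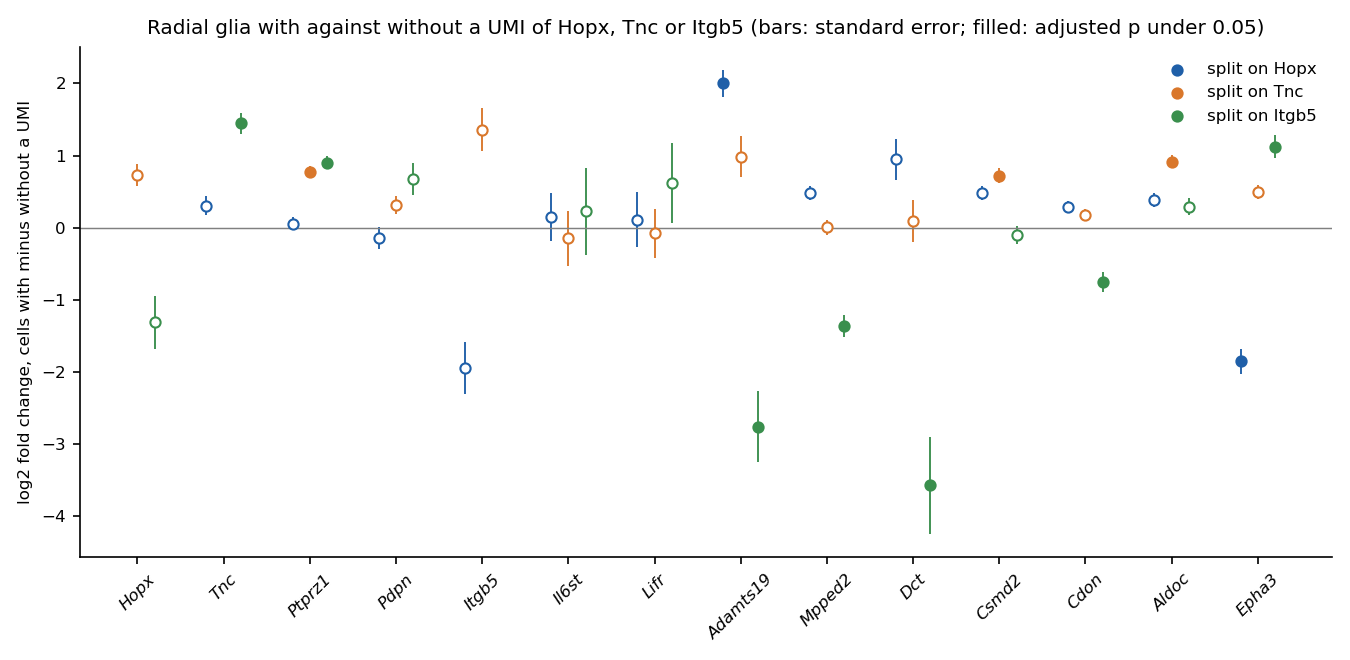
Log2 fold change (vertical axis, with standard error) of marker genes and Hopx-like genes in radial glia with against without a UMI of Hopx, Tnc or Itgb5, from edgeR on cells thinned to equal depth in 2 embryos; filled points have an adjusted p under 0.05. Tnc and Ptprz1 are higher with Itgb5, whereas Hopx and Adamts19 have negative values with Itgb5.

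Genes whose pattern was most like *Hopx* over single radial glia were found by Pearson's r of log counts in thinned cells, averaged over the 2 embryos, among 8711 genes present in at least 5% of the cells. All were weak. *Adamts19* came first (r = 0.186), then *Mpped2* (0.177), *Fam210b* (0.141), *Csmd2* (0.138), *Ctnnbip1*, *Shc3*, *Dct*, *Aldoc*, *Cdon* and *Cdh2* (0.120). *Tnc* ranked 56 (r = 0.0898), *Ptprz1* ranked 746 and *Pdpn* ranked 7810. These r values come from the same cells as the *Hopx* split and do not add to it.

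Several of these genes differed in the *Itgb5* split. *Mpped2* stood at 404 and 561 CPM with *Itgb5* against 1160 and 1307 CPM without it (-1.36 ± 0.15, adjusted p = 0.00782) and *Cdon*, a hedgehog co-receptor gene, passed at -0.75. *Adamts19*, at 7.41 and 3.28 CPM against 34.5 and 35.9 CPM (adjusted p = 0.0414), and the melanocyte enzyme gene *Dct*, at 3.70 and 3.28 CPM against 32.1 and 50.7 CPM (adjusted p = 0.04998), also passed, but with at most 3 UMIs per embryo in cells with *Itgb5*. *Epha3*, the gene that was lower with *Hopx*, was higher with *Itgb5* by 1.12. In the *Tnc* split *Mpped2* (0.01 ± 0.10) and *Dct* (0.09 ± 0.29) lay near 0, while *Csmd2*, *Shc3*, *Aldoc* and *Cdh2* were higher.

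Across classes the picture was another one. Over 22 points (classes by embryo, which share libraries and differ in depth) and 11114 genes, *Hopx* was most like *Pdpn* (r = 0.968), *Vit* (0.938) and *Rfx4* (0.932) on the scale of log2(CPM + 10). *Tnc* was most like *Rfx4* (0.981), *Sox8* and *Mlc1*, *Pdpn* was most like *Vit*, *Rfx4* and *Hopx*, *Ptprz1* was most like *Mycn* (0.919), *Sybu* and *Cadm2*, *Il6st* was most like *Hsp90b1*, *Pcbd2* and *Epb41l2*, the genes most like *Lifr* included *Ifitm2* and *Tmem259*, and *Itgb5* was most like *Nupr1*, *Arhgap24* and *Adap2*. *Hopx* and *Pdpn*, the most alike pair of marker genes between classes, thus ranked far apart within radial glia. Their r there was weak, -0.061 in embryo 4 and -0.009 in embryo 5, and their co-detection ratio changed direction with the setting.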

How the data were processed

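Gel-bead 3′ single-cell libraries of 2 wild-type E16.5 embryos were analysed. The authors deposited filtered gene-by-barcode matrices of UMI counts; the submitters' processing notes name Cell Ranger 7.0.0 and mm10, while the matrix headers name version 7.1.0, and intron counting is not given in the sources used here. No normalization had been applied to these counts.

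Cells with at least 1000 genes and at most 10% mitochondrial UMIs were kept. Doublets were removed by Scrublet score at a rate of 0.8% per 1000 cells (947 and 1052 cells). Cells were assigned to classes by UMI gates on fixed markers. The marker genes, gene lists and gates were chosen with earlier results of these data known. Counts were summed per embryo and class. Values of 1 class and of some listed genes are not reported here; they remain in the fits and in the counts over classes and lists. Tests used edgeR 4.0.16 in R 4.3.3 (quasi-likelihood, TMM, filterByExpr, Benjamini-Hochberg adjusted p under 0.05 over all genes tested), and the standard error is the absolute log2 fold change divided by the square root of F. The pipeline was tested on simulated data. Splits by a gene and co-detection used cells thinned to 5000 UMIs. Depth is given in the report; intervals and floors cover counting error only.

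Named genes were all 9 marker genes, at most 4 called genes per list and comparison with the smallest adjusted p, the called genes of the Hopx split at a mean of at least 20 CPM, and the genes most like each marker gene; 8030451A03Rik, Hopxos and genes named under the block or with other-lineage cells left out were chosen after their values were seen. Both groups of each comparison come from the same embryos, so embryo numbers pair the samples: deviations of same-numbered sums correlated at 0.0268 to 0.336 between classes, 0.293 for the cycling comparison and 0.130 to 0.432 in the splits. Alternatives covered the embryo block, DESeq2 1.42.0 (size factors and Wald test), the low-count filter, cell filters, doublets, 2 other radial glia gates, other-lineage cells, the cycling gate, detection and thinning depth. Python 3.11.15, scanpy 1.11.5, numpy 2.4.6, scipy 1.17.1 and pandas 2.3.3 were used.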

Additional observations from a re-analysis of the deposited data

How the results depend on the processing

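Against the other classes, the counts of genes and of marker genes called stayed within 1.5 times in 70 of 70 alternatives each, and of 588 log2 fold changes 2 became called, 4 (Il6st against IPC-like, MGE and other GABAergic cells and Lifr against MGE cells, with the Hes5 gate) lost the call and none changed sign while called. No paired value with the embryo as a replicate block changed a call between classes. In the cycling comparison the block called 1892 genes against 1098, and marker genes called were 1 with the block, with DESeq2, with the stricter cycling gate and without other-lineage cells, and 3 with the Hes5 gate. Over all genes DESeq2 called 723 higher and 227 lower of 12717, and the Hes5 gate 499 and 277 of 10225. The stricter cycling gate called 1064 and 432 of 12745, and leaving out other-lineage cells 960 and 455 of 12757. For the Hopx split (2 genes) the counts were 157 with the block, 83 with no filter on low counts, 11 with DESeq2, 28 with doublets kept, 29 with the Hes5 gate, 13 at 5% mitochondrial UMIs, 18 without other-lineage cells, 239 with both that and the block and 0 thinned to 2000 UMIs. For Tnc (143) they were 688 with the block, 551 unfiltered, 231 without other-lineage cells, 626 with both, 95 with Slc1a3 of at least 5 and 94 thinned to 8000. For Il6st (0) they were 176 with the block, 34 unfiltered, 2 with DESeq2, 1 with doublets kept, 1 without other-lineage cells and 3 with both. For Pdpn (0) they were 76 with the block, 82 unfiltered, 3 with DESeq2, 2 with doublets kept, 2 with the Hes5 gate and 56 with the block and without other-lineage cells. For Itgb5 (106) they were 428 with the block, 442 unfiltered, 185 without other-lineage cells, 405 with both, 48 with Slc1a3 of at least 5 and 36 thinned to 2000. The causes of these shifts were not tested. The setting that combines the block with leaving out other-lineage cells was added after seeing the data. The median co-detection ratio of 6 pairs was 1.04, from 1.01 to 1.07 when either embryo was left out, and 1.12 when detection needed at least 2 UMIs. The share of radial glia with at least 3 marker genes, 34.2% and 34.5% in the 2 embryos, was 5.82% and 7.02% when detection needed at least 2 UMIs and 50.7% and 51.7% thinned to 8000 UMIs. With 2 embryos, leaving out either allowed values but no test. Depth limits Fam107a, Moxd1 and every pair with Itgb5.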
